A study of Drosophila melanogaster with 16 samples.

Results

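Midguts of female flies that overexpressed Raf, a MAP kinase kinase kinase, in its gain-of-function version together with the intracellular domain of the receptor Notch (RafGOF NotchIC) were set against midguts of wild type females. The comparison holds 8 of the 16 arrays of the series, 4 per group, chosen by their titles, and 18769 probe sets after the control probe sets were left out. The other 8 arrays, 4 of RafGOF with a dominant-negative Notch (RafGOF NotchDN) and 4 of RafGOF alone, entered the fit that estimated the spread. RafGOF overexpression is shared by all 3 transgenic groups, so a difference from wild type holds the effect of both transgenes. The sources used here give no driver, no cell type of transgene expression, no age of the flies and no number of guts per array. Although the series title speaks of stem cells, the labelled source is the midgut. Raf and Notch themselves are not analysed here, since no probe set carries either symbol alone.

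Stem cells of the fly midgut divide to give enteroblasts, which mature into absorptive enterocytes, and hormone-secreting enteroendocrine cells. Signalling by the EGF receptor through Ras, Raf and the MAP kinase drives stem cell division. Notch is cut on activation by its ligand Delta, and its intracellular domain then moves to the nucleus, where it turns on genes of the E(spl) complex. In the midgut, Notch activity is known to favour the enterocyte fate, and its loss to give clusters of stem-like and enteroendocrine cells.

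Every value below is an RMA signal on the log2 scale, in which a difference of 1 is a 2-fold change. Array medians lay between 5.48 and 5.62 in RafGOF NotchIC and between 5.57 and 5.67 in wild type. Pairs of arrays correlated at 0.9812 to 0.9925 within RafGOF NotchIC, at 0.9852 to 0.9947 within wild type and at 0.9632 to 0.9814 between the groups. The first principal component of the 8 arrays held 52.44% of the variance and separated the groups, with scores of 16.94 to 44.96 in RafGOF NotchIC and −32.75 to −26.24 in wild type. The second held 20.93% and set the array numbered 2 of each group apart, at −37.74 in RafGOF NotchIC and −30.37 in wild type, with the other 6 arrays between 3.624 and 16.02. On those 2 arrays the 3′ probe set of the phe control also exceeded its 5′ probe set by more, by 2.87 and 2.94, against 1.62 to 2.2 on the other RafGOF NotchIC arrays and 1.61 to 1.82 on the other wild type arrays. The part of this in the results was not tested beyond leaving those arrays out, fitting the replicate number as a block and weighting the arrays. The labels do not say whether arrays of a group came from separate animals or pools, so p-values measure the spread between these arrays, which may be technical.

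The question was which genes differed in a midgut with both active Raf and active Notch. At an adjusted p under 0.05 in limma, 1408 probe sets were higher (7.5%) and 984 were lower (5.24%) in RafGOF NotchIC. Of these, 362 rose and 356 fell by at least 2-fold, 69 and 67 by at least 4-fold, and 21 and 12 by at least 8-fold. With 1 probe set per gene, 1196 of 11982 genes were higher (9.98%) and 811 were lower (6.77%). The 4 RafGOF NotchIC arrays lay above all wild type arrays in 1048 of the higher genes and below them in 690 of the lower genes. These genes were called on the same arrays, so the counts are descriptions and add no support to the calls. The share of all genes without overlap is not given here. One array weighed on the totals: without RafGOF NotchIC array 3, 764 genes were higher and 503 were lower. Without all 4 arrays numbered 2, 1524 were higher and 829 were lower. Because these are bulk samples, fewer cells of a type and less RNA per cell cannot be told apart in any result below.

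Most genes that differed from wild type with active Notch also differed with RafGOF alone. RafGOF minus wild type called 14.9% of all genes higher and 10.1% lower. Of the 1196 higher genes, 948 were also called higher in RafGOF minus wild type and 2 were called lower there. Of the 811 lower genes, 670 were also called lower and 0 higher. The comparisons share the wild type arrays, so these counts are descriptions. The direct contrast of RafGOF NotchIC minus RafGOF, which uses no wild type array for its difference, called 55 of the 1196 genes higher and 74 lower, and 27 of the 811 genes higher and 7 lower. Of all genes it called 1.4% higher and 1.61% lower. The 1196 and 811 genes were picked on the same RafGOF NotchIC arrays, so these counts are descriptions too.

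The largest rise was in CG32302, a gene known only by its number. Its signal was 11.21, 11.46, 11.8 and 11.99 on the RafGOF NotchIC arrays, against 6.51, 5.59, 4.94 and 4.86 on the wild type arrays. The mean difference was 6.14 ± 0.48 (SE), or 70.3-fold (adjusted p = 1.99e-06). The groups did not overlap, but the largest rises and falls were picked only among genes without overlap. Erasp followed at 17.4-fold (4.12 ± 0.43, adjusted p = 2.08e-05), with 10.14 to 11.29 in RafGOF NotchIC and 5.97 to 7.42 in wild type. CG5883 rose 16.8-fold (adjusted p = 0.000105), Rnf11, which encodes a RING finger protein, 12.4-fold (adjusted p = 3.5e-08) and CG10184 11.2-fold (adjusted p = 9.81e-07). The sensor of double-stranded RNA cGlr1 had 9.46, 8.67, 9.47 and 9.67 in RafGOF NotchIC, against 6.36, 6.49, 5.35 and 4.73 in wild type (12-fold, adjusted p = 0.000104).

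Filamin (cher) rose 9.98-fold (3.32 ± 0.45, adjusted p = 0.000196) and the beta-tubulin betaTub60D 9.3-fold (adjusted p = 0.000482). The chitinase Cht4 rose 9.18-fold (adjusted p = 0.00245), the matrix metalloproteinase Mmp2 6.4-fold (adjusted p = 6.43e-05) and the inositol polyphosphate kinase Ipk2 6.42-fold (adjusted p = 7.55e-06). Dtg rose 7.17-fold (adjusted p = 1.27e-05) and NtR 6.89-fold (adjusted p = 1.19e-05). The groups did not overlap for any of these genes, which the rule that picked them required. The arrays of mat were wider apart, at 12.24, 11.53, 12.98 and 11.05 in RafGOF NotchIC against 9.25, 8.61, 7.06 and 7.76 in wild type (13.7-fold, adjusted p = 0.0119). CG33258 rose 10.1-fold (adjusted p = 0.000104), with wild type arrays spread from 8.43 to 11.03.

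One of the large rises was fragile. CG14957 had 11.4, 10.3, 11.62 and 7.1 in RafGOF NotchIC, against 6.99, 5.46, 5.29 and 7.03 in wild type. Array 4 of RafGOF NotchIC lay just above the highest wild type array, and the difference of 3.91 ± 1.21 (adjusted p = 0.045) was no longer called without any 1 of the other RafGOF NotchIC arrays or any 1 of the wild type arrays, with adjusted p up to 0.147.

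**Figure D1:**
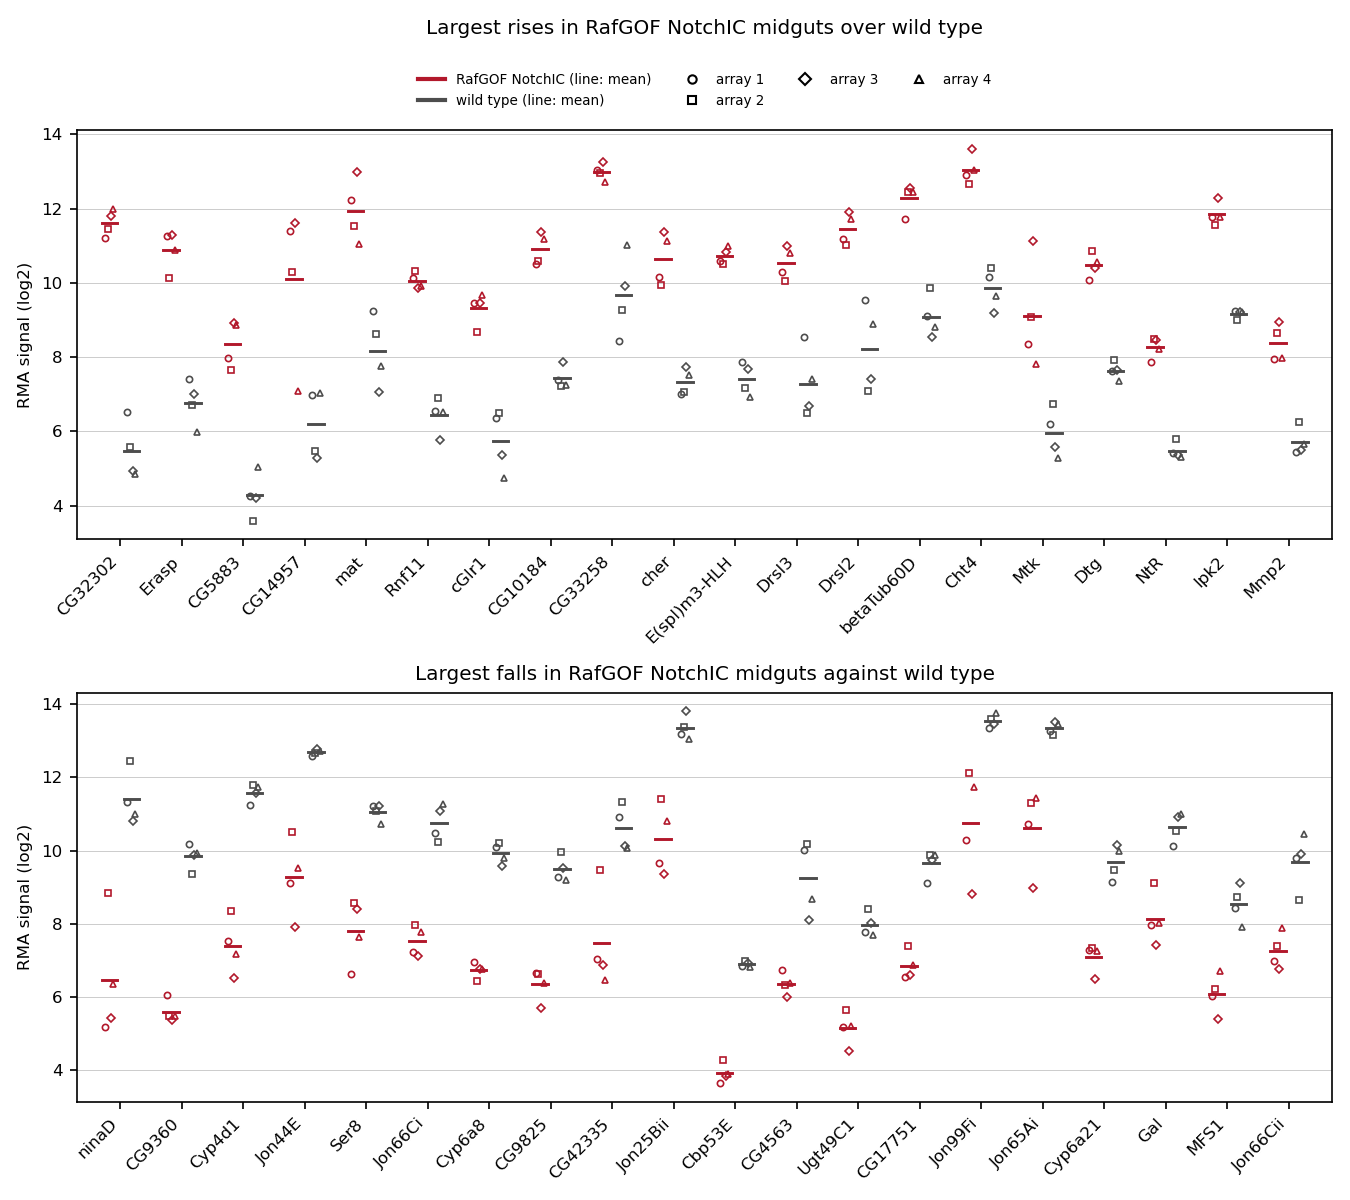
RMA signal (log2, vertical axis) of the 20 largest rises (top) and 20 largest falls (bottom) in RafGOF NotchIC over wild type, with a marker for each array and a line for each group mean. Only called genes without overlap of the groups could be picked, so the lack of overlap is no result. Array 4 of RafGOF NotchIC lies close to wild type in CG14957.

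The largest fall was in ninaD, a scavenger receptor needed for carotenoid uptake. It had 5.18, 8.85, 5.43 and 6.36 in RafGOF NotchIC, against 11.33, 12.45, 10.82 and 10.99 in wild type (30.7-fold lower, adjusted p = 0.00461). The array numbered 2 was the highest of each group, and no RafGOF NotchIC array reached the lowest wild type array. CG9360 had 6.06, 5.47, 5.36 and 5.48 in RafGOF NotchIC, against 10.17, 9.35, 9.89 and 9.94 in wild type (18.9-fold lower, adjusted p = 4.55e-09). The calbindin gene Cbp53E fell 7.83-fold (adjusted p = 1.33e-09) and stood at 3.64 to 4.27 in RafGOF NotchIC, against 6.81 to 6.97 in wild type. The beta-galactosidase Gal fell 5.74-fold (adjusted p = 0.000535) and the transporter gene MFS1 5.51-fold (adjusted p = 0.000623). CG17751 fell 6.99-fold (adjusted p = 4.3e-06) and CG9825 8.86-fold (adjusted p = 0.000922). CG4563 fell 7.41-fold (adjusted p = 0.000769).

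CG42335 had probe sets that went opposite ways. The brighter one fell 8.88-fold (7.04, 9.48, 6.86 and 6.47 in RafGOF NotchIC, against 10.91, 11.34, 10.13 and 10.07 in wild type; adjusted p = 0.0015). The other rose 17.5-fold, with a mean of 8.91 in RafGOF NotchIC and 4.78 in wild type (adjusted p = 5.82e-07). The groups did not overlap on either probe set, so no direction is given for the gene.

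Genes were then grouped into 31 lists of pathways, cell types and tissues, in which 474 genes were measured. Over all lists 72 genes were higher (15.2%) and 78 were lower (16.5%), against 9.98% and 6.77% of all genes. The lists were chosen with earlier results of these data known, so shares above those of all genes are descriptions. Without RafGOF NotchIC array 3 the lower count was 50. The median difference over all genes was 0.

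**Figure D2:**
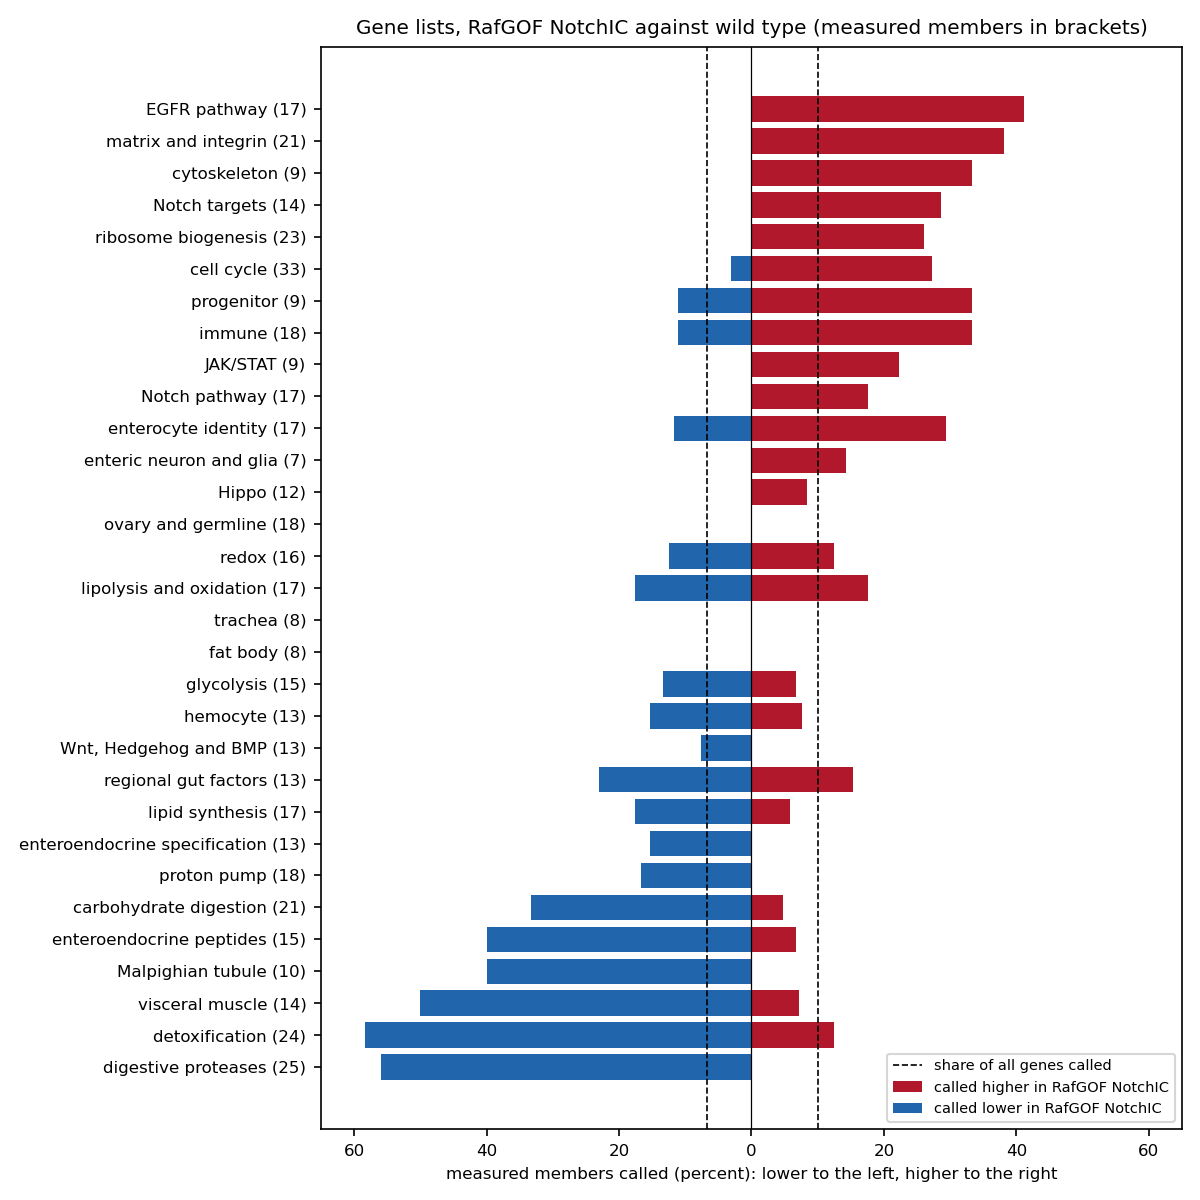
Share of the measured members of each list (percent, horizontal axis) called higher (right) or lower (left) in RafGOF NotchIC than in wild type, with the number measured in brackets. Dashed lines mark the 9.98% and 6.77% of all genes called higher and lower. The lists were chosen with earlier results of these data known. Detoxification, digestive protease and visceral muscle lists reach farthest left, and EGFR pathway and matrix and integrin lists farthest right.

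Among Notch targets, 4 of 14 measured genes were higher and 0 lower, with a median difference of 0.1. The transcription factor gene E(spl)m3-HLH rose most. It had 10.59, 10.5, 10.82 and 11 in RafGOF NotchIC, against 7.88, 7.18, 7.67 and 6.92 in wild type (9.96-fold, adjusted p = 1.11e-06). E(spl)malpha-BFM, of the Bearded family, rose 3.54-fold (1.82 ± 0.24, adjusted p = 0.000176). E(spl)mbeta-HLH, a factor of the same family as E(spl)m3-HLH, had 9.62, 9, 9.79 and 9.74 in RafGOF NotchIC, against 8.14, 7.61, 7.97 and 7.6 in wild type (3.25-fold, adjusted p = 2.5e-05). The zinc finger factor klu, active in enteroblasts, had 7.53, 7.59, 7.75 and 8.01 in RafGOF NotchIC, against 6.49, 6, 6.67 and 6.32 in wild type (2.55-fold, adjusted p = 0.000151).

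The other 10 Notch targets did not pass. E(spl)m7-HLH came closest, with 6.75, 6.49, 7.08 and 6.71 in RafGOF NotchIC and 6.46, 6.06, 6.17 and 6.16 in wild type (difference 0.54, adjusted p = 0.0682). Its groups did not overlap, and it was called with a replicate block (adjusted p = 0.0139 over 8 arrays and 0.00367 over 16). The remaining 9, Brd, Tom, Ocho, dpn, E(spl)mdelta-HLH, E(spl)m2-BFM, E(spl)m4-BFM, E(spl)m5-HLH and E(spl)m6-BFM, differed by −0.14 to 0.16. All but Ocho had group means below the array medians, so a change in them may not be detectable at this signal.

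E(spl)m3-HLH averaged 10.73 in RafGOF NotchIC, 10.06 in RafGOF NotchDN, 10.8 in RafGOF and 7.41 in wild type. In the direct contrast with RafGOF none of the 14 was called, with differences of −0.07 for E(spl)m3-HLH (adjusted p = 0.985), 0.46 for E(spl)mbeta-HLH (adjusted p = 0.287) and 0.66 for klu (adjusted p = 0.0682). With the replicate number as a block over all 16 arrays, klu (adjusted p = 0.00448), E(spl)mbeta-HLH (adjusted p = 0.0466) and E(spl)m7-HLH (difference 0.42, adjusted p = 0.0465) were called. With the block over only the 8 arrays of the 2 groups none of these 3 was called (adjusted p = 0.0536 for klu, 0.121 for E(spl)mbeta-HLH and 0.17 for E(spl)m7-HLH). Against RafGOF NotchDN, klu was higher by 1.09 (adjusted p = 0.000963) and E(spl)mbeta-HLH by 0.96 (adjusted p = 0.00293). E(spl)m7-HLH was higher by 0.65 (adjusted p = 0.0395), a call lost without any 1 of RafGOF NotchDN arrays 2, 3 and 4 or RafGOF NotchIC arrays 1, 3 and 4, with adjusted p up to 0.135.

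In the Notch pathway list 3 of 17 measured genes were higher and 0 lower. The glycosyltransferase gene fng, which modifies Notch, rose 3.12-fold (adjusted p = 0.00278), with signals of 7.9 to 8.45 in RafGOF NotchIC and 6.37 to 6.61 in wild type. O-fut1, which adds fucose to Notch, rose 1.96-fold (adjusted p = 0.00641) and was lower than in RafGOF by 1.16 (adjusted p = 0.00773). That direct call was lost without the arrays numbered 2 (adjusted p = 0.11). The protease subunit gene Psn rose 1.95-fold (adjusted p = 0.0138); without wild type array 4 its adjusted p was 0.0525.

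Of 9 measured progenitor genes, 3 were higher and 1 was lower. The Snail family factor esg, which marks stem cells and enteroblasts, had 8.74, 9.66, 8.73 and 9.27 in RafGOF NotchIC, against 7.65, 8.31, 7.87 and 7.61 in wild type (2.36-fold, adjusted p = 0.0154). Sox100B rose 2.77-fold (adjusted p = 0.0152; 0.0529 without wild type array 4), and klu is given above. Miranda (mira), an adaptor of asymmetric division in fly neuroblasts, fell 3.91-fold (adjusted p = 1.42e-05), with 4.43 to 4.73 in RafGOF NotchIC and 5.7 to 6.91 in wild type. The Notch ligand gene Delta, a stem cell marker, had 7.23, 6.27, 6.92 and 7.4 in RafGOF NotchIC and 6.98, 6.63, 6.85 and 6.6 in wild type. Its groups overlapped and the difference was 0.19 (adjusted p = 0.782). Sox21a differed by 0.5 (adjusted p = 0.16), neur by −0.37 (adjusted p = 0.421), spdo by −0.25 (adjusted p = 0.351) and zfh2 by 0.05 (adjusted p = 0.919).

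For esg and Delta the mean in RafGOF NotchIC lay between wild type and the other transgenic groups. esg averaged 9.1 in RafGOF NotchIC, 11.24 in RafGOF NotchDN, 10.36 in RafGOF and 7.86 in wild type. Against RafGOF NotchDN esg was lower (difference −2.14, adjusted p = 0.000403), and Delta was lower too (difference −2.27, adjusted p = 0.00034). Against RafGOF esg differed by −1.26 (adjusted p = 0.0474), a call lost without any 1 of RafGOF arrays 2, 3 and 4 or RafGOF NotchIC arrays 1, 3 and 4, with adjusted p up to 0.159. Delta averaged 6.95 in RafGOF NotchIC, 9.22 in RafGOF NotchDN, 7.92 in RafGOF and 6.77 in wild type, and differed from RafGOF by −0.96 (adjusted p = 0.177).

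**Figure D3:**
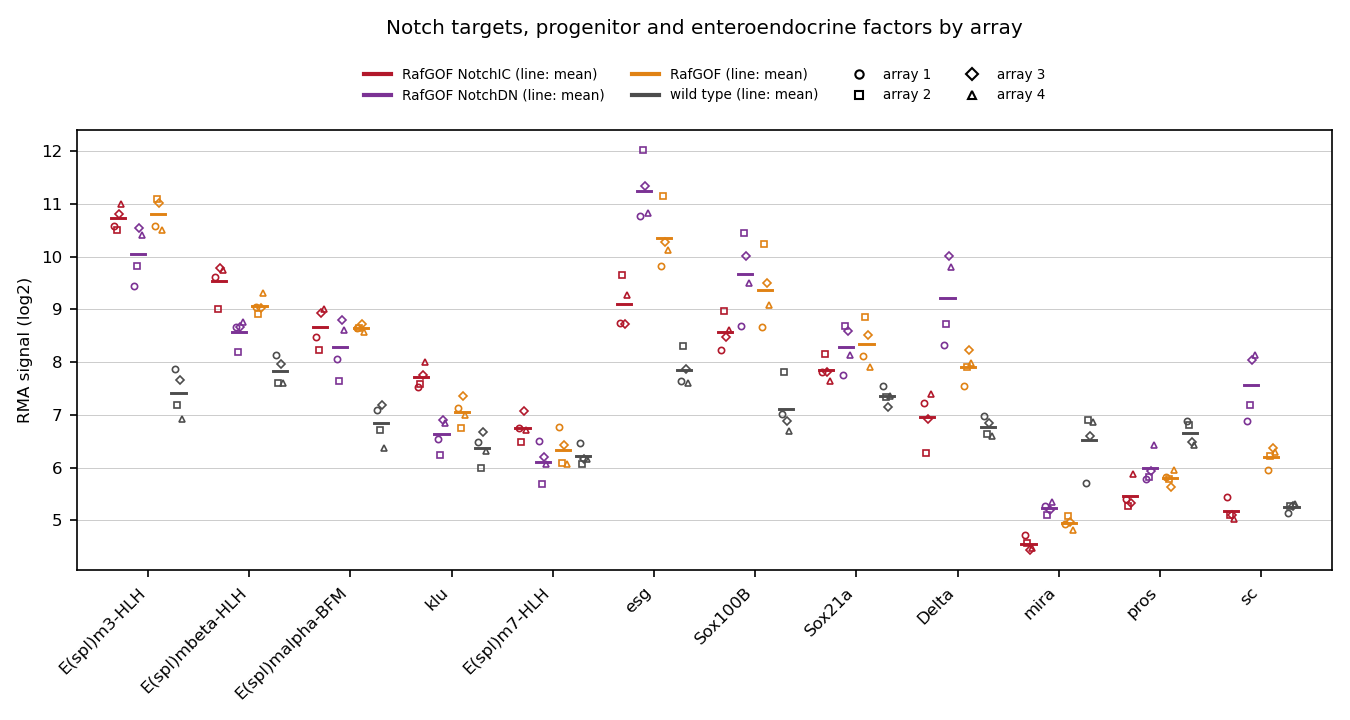
RMA signal (log2, vertical axis) of 12 Notch target, progenitor and enteroendocrine factor genes in RafGOF NotchIC, RafGOF NotchDN, RafGOF and wild type, with a marker for each array and a line for each mean. E(spl)m3-HLH is above wild type in all 3 transgenic groups, while esg and Delta in RafGOF NotchIC lie below RafGOF NotchDN.

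Genes of the EGFR pathway were higher in 7 of 17 cases (41.2%) and lower in 0, with a median difference of 0.51. Among the inhibitors, the secreted antagonist aos had 7.31, 8.07, 7.37 and 7.9 in RafGOF NotchIC, against 5.29, 5.49, 4.96 and 5.1 in wild type (5.47-fold, adjusted p = 0.000132). The MAP kinase phosphatase Mkp3 rose 3.29-fold (adjusted p = 0.000471) and the ETS repressor aop 1.48-fold (adjusted p = 0.0109). The gene edl, a regulator of ETS factors and not counted here as an inhibitor, rose 4.11-fold (adjusted p = 7.84e-05). Of 3 measured ligand genes, Spitz (spi, 2.2-fold, adjusted p = 0.000739) and Keren (Krn, 1.48-fold, adjusted p = 0.00521) rose, and Gurken (grk) differed by 0.12 (adjusted p = 0.707). The ubiquitin ligase gene Cbl rose 1.43-fold (adjusted p = 0.0368), which was not called without any 1 of wild type arrays 1, 2 and 4 or RafGOF NotchIC arrays 2, 3 and 4, with adjusted p up to 0.0999, or when the probe sets of the gene were averaged (adjusted p = 0.135).

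Sprouty (sty), another inhibitor, had 9.67, 8.87, 9.82 and 10.1 in RafGOF NotchIC and 9.13, 8.38, 8.7 and 9.1 in wild type. Its groups overlapped (difference 0.79, adjusted p = 0.0535). Star (S), which helps ligand release, differed by 0.85 (adjusted p = 0.0923). With the replicate number as a block, although these arrays were not taken as paired, both were called. Adjusted p was 0.00393 for sty and 0.0276 for S over 8 arrays, and 0.00182 and 0.00699 over 16. The receptor gene Egfr differed by 0.11 (adjusted p = 0.869). The other 6 members differed by −0.12 to 0.32 and were not called. They are Sos, drk, Dsor1 and ksr of the intracellular cascade and the inhibitors kek1 and PTP-ER, so not all inhibitors rose.

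Of 15 measured enteroendocrine peptide and processing genes, 6 were lower and 1 was higher, with a median difference of −0.37. Allatostatin C (AstC) had 9.34, 8.84, 8.38 and 9.87 in RafGOF NotchIC, against 10.93, 11.12, 10.91 and 11.12 in wild type (3.76-fold lower, adjusted p = 9.45e-05). CCHa2 fell 3.34-fold (adjusted p = 0.00309), Dh31 3.26-fold (adjusted p = 0.00781) and 7B2, a helper of the prohormone convertase, 3.03-fold (adjusted p = 0.000105). Ion transport peptide (ITP) rose 3.09-fold (adjusted p = 0.00384).

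Of 13 measured factors of enteroendocrine specification, 2 were lower and 0 higher. Prospero (pros), which marks the mature cells, had 5.4, 5.27, 5.32 and 5.87 in RafGOF NotchIC, against 6.88, 6.8, 6.49 and 6.42 in wild type (2.27-fold lower, adjusted p = 0.00022). The factor tap fell 1.63-fold (adjusted p = 0.0139; 0.0521 without RafGOF NotchIC array 3). The proneural factor scute (sc) did not pass against wild type (difference −0.08, adjusted p = 0.87) and had 5.45, 5.1, 5.11 and 5.02 in RafGOF NotchIC and 5.14, 5.28, 5.28 and 5.3 in wild type. It averaged 5.17 in RafGOF NotchIC, 7.56 in RafGOF NotchDN, 6.21 in RafGOF and 5.25 in wild type, and was lower than in RafGOF NotchDN by a difference of −2.39 (adjusted p = 5.3e-06). The other 10 factors differed from wild type by −0.46 to 0.14.

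Cell cycle genes were higher in 9 of 33 cases (27.3%) and lower in 1, with a median difference of 0.31. The higher count was 15 without the 4 arrays numbered 2. The sliding clamp PCNA had 9.47, 8.7, 9.52 and 9.3 in RafGOF NotchIC, against 7.81, 7.23, 7.8 and 7.2 in wild type (3.32-fold, adjusted p = 5.21e-05). Cyclin E (CycE), which starts S phase, rose 3.1-fold (adjusted p = 0.00107) and RnrL, the large subunit of ribonucleotide reductase, 2.66-fold (adjusted p = 0.00258). Anillin (scra), which acts at the cleavage furrow, rose 2.19-fold (adjusted p = 0.00577). Cdk4, the partner of Cyclin D, fell 2.29-fold (adjusted p = 8.22e-05), with 5.76 to 6.32 in RafGOF NotchIC and 7.21 to 7.57 in wild type.

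Some genes of chromosome segregation and cell separation did not pass. Borealin (borr), of the chromosomal passenger complex, had 6.2, 4.66, 6.37 and 5.97 in RafGOF NotchIC and 4.82, 5.05, 4.99 and 4.96 in wild type; its groups overlapped (difference 0.85, adjusted p = 0.07). Differences were 0.31 for the central spindle gene feo (adjusted p = 0.516) and 0.13 for securin (pim, adjusted p = 0.772). These 3 genes were chosen after their values were seen. Their differences in RafGOF minus wild type were 3.02 for borr, 2.03 for feo and 1.74 for pim.

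With RafGOF alone, 27 of the 33 cell cycle genes were called above wild type, against 14.9% of all genes. In the direct contrast 17 were lower in RafGOF NotchIC than in RafGOF and 0 were higher, against 1.4% of all genes called higher and 1.61% called lower. The differences were −2.17 for borr (adjusted p = 0.000908), −1.72 for feo (adjusted p = 0.00231), −1.62 for pim (adjusted p = 0.000766), −1.38 for scra (adjusted p = 0.00615; 0.0516 with a block over the 8 arrays) and −0.98 for PCNA (adjusted p = 0.0168). CycE (−0.88, adjusted p = 0.128) and RnrL (−0.89, adjusted p = 0.113) did not pass without a replicate block or with one over the 8 arrays (adjusted p = 0.108 for CycE and 0.0792 for RnrL), and passed with a block over all 16 arrays (adjusted p = 0.0282 for CycE and 0.0148 for RnrL). The count of 17 was 24 with the block over 16 arrays, 13 with the block over 8 arrays, 11 without RafGOF array 3 or RafGOF NotchIC array 2, and 7 without the 4 arrays numbered 2. In the last case PCNA (adjusted p = 0.11), scra (adjusted p = 0.0807) and feo (adjusted p = 0.0582) were not called, and PCNA was also not called without either of those 2 single arrays.

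Of 23 measured ribosome biogenesis genes, 6 were higher than wild type (26.1%) and 0 were lower, with a median difference of 0.21, and 13 were called above wild type in RafGOF alone, where 14.9% of all genes were. The nucleolar gene Surf6 rose 2.04-fold (adjusted p = 0.000129), nucleophosmin (Nph) 1.74-fold (adjusted p = 0.00139) and fibrillarin (Fib), which methylates ribosomal RNA, 1.54-fold (adjusted p = 0.00263). Fib had 9.58, 9.32, 9.54 and 9.46 in RafGOF NotchIC, against 8.97, 8.95, 8.63 and 8.85 in wild type, with no overlap. Against RafGOF, 9 genes were lower and 0 higher, Fib by a difference of −0.74 (adjusted p = 0.00362). With the replicate block over 16 arrays 15 were lower and 1 was higher, and with the block over 8 arrays 10 were lower and 0 higher. The lower count was 5 without RafGOF array 2, 4 without RafGOF array 3 or RafGOF NotchIC array 2, and 2 without all arrays numbered 2, when Fib was not called (adjusted p = 0.0768).

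**Figure D4:**
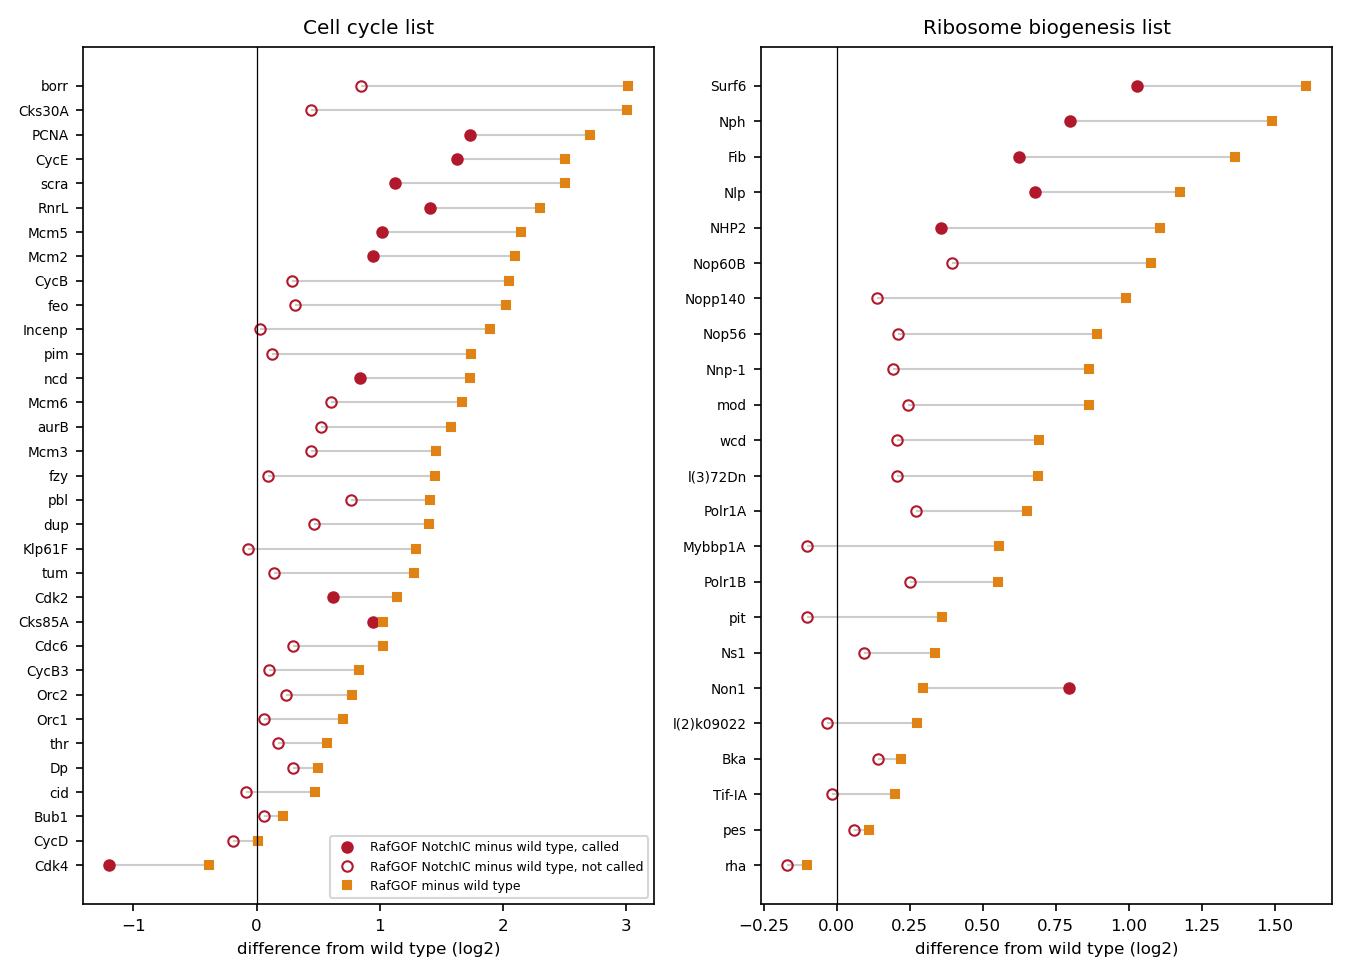
Difference from wild type (log2, horizontal axis) of each measured member of the cell cycle list (left) and the ribosome biogenesis list (right), for RafGOF NotchIC (circles, filled where called) and RafGOF (squares). In both lists most circles lie between 0 and the square of the same gene; both differences share the wild type arrays.

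Secreted digestive proteases were lower in 14 of 25 cases (56%) and higher in 0, with a median difference of −1.45. The serine protease Jon44E had 9.1, 10.5, 7.92 and 9.53 in RafGOF NotchIC, against 12.59, 12.67, 12.78 and 12.73 in wild type (10.8-fold lower, adjusted p = 0.00079). The wild type arrays lay close together, while the RafGOF NotchIC arrays were spread widely and none reached them. Ser8 fell 9.59-fold (adjusted p = 0.00132), Jon66Ci 9.47-fold (adjusted p = 2.5e-05) and Jon25Bii 8.21-fold (adjusted p = 0.0022). Jon99Fi fell 6.96-fold (adjusted p = 0.0109), Jon65Ai 6.69-fold (adjusted p = 0.00243) and Jon66Cii 5.44-fold (adjusted p = 0.000173). The Jon genes are a multigene family, and probes can share signal among close copies.

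Of 21 measured genes of carbohydrate digestion, 7 were lower (33.3%) and 1 was higher, with a median difference of −0.9. The maltase Mal-A4 had 10.6, 12.03, 9.99 and 9.36 in RafGOF NotchIC, against 12.53, 12.96, 12.44 and 12.38 in wild type (4.24-fold lower, adjusted p = 0.00344). Mal-A3 fell 4.09-fold (adjusted p = 0.0113), with overlap of the groups through array 2 of RafGOF NotchIC at 11.94. The lysozyme gene LysX rose 8.41-fold (adjusted p = 0.0131; 0.0504 without RafGOF NotchIC array 3), also with overlap. The lower count was 4 without any 1 of wild type array 3, RafGOF NotchIC array 1 and RafGOF NotchIC array 3, 12 without RafGOF NotchIC array 2 and 11 without all arrays numbered 2. The higher count was 0 without RafGOF NotchIC array 3 and 2 without RafGOF NotchIC array 4.

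In the enterocyte identity list 5 of 17 genes were higher and 2 were lower, with a median difference of 0.23. The gut lipase magro (mag) fell 4.98-fold (adjusted p = 0.0121), with 9.03 to 11.9 in RafGOF NotchIC and 12.83 to 13.16 in wild type. Neuroglian (Nrg), a septate junction protein, rose 2.89-fold (adjusted p = 0.0151), with 8.85, 9.66, 9.54 and 9.76 in RafGOF NotchIC and 7.74, 8.44, 7.66 and 7.86 in wild type. The higher count rested on few arrays and was 3 without wild type array 1 or 4, and 2 without wild type array 3 or RafGOF NotchIC array 3 or 4. The lower count was 1 without any 1 of wild type arrays 1, 2 and 4 and RafGOF NotchIC arrays 1 and 3, or without all arrays numbered 2.

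Detoxification genes were lower in 14 of 24 cases (58.3%) and higher in 3, with a median difference of −0.87. The 3 higher were 5 without RafGOF NotchIC array 4. The cytochrome P450 gene Cyp4d1 had 7.52, 8.34, 6.52 and 7.17 in RafGOF NotchIC, against 11.25, 11.78, 11.57 and 11.73 in wild type (18.3-fold lower, adjusted p = 1.5e-05). Cyp6a8 fell 9.16-fold (adjusted p = 4.12e-08), Cyp6a21, another P450, 6.06-fold (adjusted p = 6.35e-05), Cyp309a1 4.37-fold (adjusted p = 0.00252) and Cyp28d1 4.31-fold (adjusted p = 0.000643). The glucuronosyltransferase family gene Ugt49C1 fell 7.16-fold (adjusted p = 6.64e-06). Cyp6g1 fell 3.69-fold (adjusted p = 0.00183), with wild type array 1 at 11.04 and the other wild type arrays at 12.03 to 12.09. Cyp4p1 rose 1.95-fold (adjusted p = 0.0015).

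Of 18 measured immune genes, 6 were higher and 2 were lower. The drosomycin-like peptide gene Drsl2 had 11.18, 11.02, 11.91 and 11.71 in RafGOF NotchIC, against 9.53, 7.08, 7.41 and 8.9 in wild type (9.36-fold, adjusted p = 0.00133). Drsl3 rose 9.6-fold (adjusted p = 0.00196). Metchnikowin (Mtk), an antimicrobial peptide, rose 8.83-fold (adjusted p = 0.0264) and had 8.36, 9.08, 11.13 and 7.81 in RafGOF NotchIC, against 6.21, 6.74, 5.59 and 5.27 in wild type. Its call was lost without wild type array 3 or 4, RafGOF NotchIC array 3 or the arrays numbered 2, with adjusted p up to 0.104. The amidase PGRP-SC2, which degrades peptidoglycan, fell 3.47-fold (adjusted p = 0.000435). Without RafGOF NotchIC array 3, 3 immune genes were higher.

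Matrix and integrin genes were higher in 8 of 21 cases (38.1%) and lower in 0, with a median difference of 0.57. The integrin alpha subunit scb had 11.38, 11.63, 11.78 and 11.71 in RafGOF NotchIC, against 8.7, 8.98, 8.71 and 9.42 in wild type (6.35-fold, adjusted p = 1.93e-05). Its beta partner mys rose 2.77-fold (adjusted p = 0.00312) and talin (rhea), which ties integrins to actin, 2.11-fold (adjusted p = 0.0023). The count was 5 without wild type array 3 or RafGOF NotchIC array 3. In the cytoskeleton list 3 of 9 genes were higher, cher and betaTub60D as above and cofilin (tsr) by 1.47-fold (adjusted p = 0.00215).

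Of 9 JAK/STAT genes, 2 were higher and 0 lower. The ligand gene upd1 rose 1.77-fold (adjusted p = 0.0118), with 4.46 to 5.17 in RafGOF NotchIC and 3.92 to 4.3 in wild type, all below the array medians. The receptor gene dome rose 2.02-fold (adjusted p = 0.0265), a call lost without any 1 of wild type arrays 2, 3 and 4 or RafGOF NotchIC arrays 1, 3 and 4, with adjusted p up to 0.0973. In the list of regional gut factors 2 of 13 were higher and 3 were lower. The homeobox gene caup rose 2.02-fold (adjusted p = 0.00508). Another, ct, fell 2.58-fold (adjusted p = 0.0021) on its brightest probe set, while a second probe set differed by 0.49 (adjusted p = 0.3). Without wild type array 2 or 4 or RafGOF NotchIC array 1 or 3, 1 was lower. The higher count was 1 without wild type array 1 or 2, RafGOF NotchIC array 3 or 4 or all arrays numbered 2.

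Metabolic lists had small counts of called genes, but their shares were not all small. In lipolysis and fatty acid oxidation 17.65% of genes were called higher and 17.65% lower. The shares were 5.88% higher and 17.65% lower in lipid synthesis, and 6.67% and 13.33% in glycolysis, against 9.98% and 6.77% of all genes. In lipolysis and fatty acid oxidation 3 of 17 genes were lower, among them the lipase Lip3 (2.96-fold, adjusted p = 0.00339) and the acyl-CoA oxidase Acox57D-d (1.86-fold, adjusted p = 0.00237), and 3 were higher. Of these, the lower were 5 without RafGOF NotchIC array 2 and 6 without all arrays numbered 2. The higher count was 1 without any 1 of wild type arrays 2, 3 and 4 and RafGOF NotchIC arrays 1 and 3. In lipid synthesis 3 of 17 were lower, including the acyltransferase Dgat2 (2.35-fold, adjusted p = 0.000292) and the acyl-CoA synthetase bgm (2.32-fold, adjusted p = 0.00101). A single lipid synthesis gene was higher, which was not called without any 1 of wild type arrays 2, 3 and 4 and RafGOF NotchIC arrays 1 and 3. Of 15 glycolysis genes 2 were lower and 1 was higher, with Pgi, the isomerase of glucose 6-phosphate, 1.93-fold lower (adjusted p = 0.0126). Without wild type array 4 or RafGOF NotchIC array 1, 3 or 4, 1 was lower. The higher call was lost without wild type array 1, 3 or 4 or RafGOF NotchIC array 1, 2 or 3.

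In the redox list 2 of 16 genes were higher and 2 were lower. The catalase Irc, which limits oxidants in the gut, rose 2.54-fold (adjusted p = 0.0056), with 9.23, 10.16, 9.19 and 8.7 in RafGOF NotchIC and 7.95, 8.59, 7.76 and 7.58 in wild type. Gclm, a subunit of the enzyme that starts glutathione synthesis, fell 1.89-fold (adjusted p = 0.00387). The higher redox count was 1 without wild type array 1 or RafGOF NotchIC array 1 or 4, and the lower count was 1 without wild type array 1, 2 or 3 or RafGOF NotchIC array 2, 3 or 4. Proton pump genes were lower in 3 of 18 cases, which was 1 without RafGOF NotchIC array 3 and 5 without the arrays numbered 2. The Hippo list had 1 of 12 genes higher, which was 0 without wild type array 3 and 2 without the arrays numbered 2. The list of Wnt, Hedgehog and BMP genes had 1 of 13 lower, which was lost without wild type array 2, 3 or 4 or RafGOF NotchIC array 1, 3 or 4, and 1 higher without the arrays numbered 2.

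Genes of tissues attached to the gut also differed. In the visceral muscle list 7 of 14 were lower and 1 was higher, with a median difference of −0.53, and the mean signal over 3 muscle markers was 8.79 to 9.28 in RafGOF NotchIC and 9.57 to 9.86 in wild type. The lower count was 3 without wild type array 2, 4 without wild type array 3 or RafGOF NotchIC array 1, and 2 without wild type array 4 or RafGOF NotchIC array 3. The myosin light chain Mlc2 fell 2.04-fold (adjusted p = 0.0289), with adjusted p up to 0.0983 when any 1 of 6 arrays was left out (wild type arrays 1, 2 and 4 and RafGOF NotchIC arrays 1, 3 and 4). The Z-disc gene Zasp52 rose 2.42-fold (adjusted p = 0.0163; 0.058 without RafGOF NotchIC array 3).

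In the Malpighian tubule list 4 of 10 genes were lower and 0 higher. None of the 4 calls was made without RafGOF NotchIC array 1 or 3, and the count was 1 without wild type array 2 or RafGOF NotchIC array 4 and 2 without wild type array 3 or 4. The phosphate transporter NaPi-T fell 1.8-fold (adjusted p = 0.0182), with adjusted p of 0.0605 without RafGOF NotchIC array 1 and 0.0536 without array 3. The mean over 2 tubule markers was 8.27 to 9.61 in RafGOF NotchIC and 9.1 to 10.37 in wild type, and overlapped. The part of muscle or tubule tissue in the other results was not tested. Of 13 hemocyte genes 2 were lower, among them the engulfment receptor NimC4 (2.15-fold, adjusted p = 0.00105), and 1 was higher. The lower hemocyte count was 1 without wild type array 3 or 4 or RafGOF NotchIC array 1 or 3, and the higher call was lost without wild type array 1 or 4, RafGOF NotchIC array 1 or 2 or all arrays numbered 2. Of 7 enteric neuron and glia genes 1 was higher. limma called 0 of 8 fat body, 0 of 8 trachea and 0 of 18 ovary and germline genes. Of them 0, 5 and 5 had an unadjusted p under 0.05, against 3671 of all 11982 genes.

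Markers of the gut's own cell types gave the following mean signals. Over 8 of 9 enterocyte markers the arrays ran from 12.38 to 12.77 in RafGOF NotchIC and from 12.8 to 12.95 in wild type, while single markers went both ways, with 2 called higher (Ssk and mesh) and 2 called lower (Jon99Ci and Npc2f). Over 5 progenitor markers they ran from 8.33 to 8.53 in RafGOF NotchIC and from 7.17 to 7.54 in wild type. Of these, 3 were called higher (esg, Sox100B and E(spl)mbeta-HLH) and 0 lower, while Delta and Sox21a were not called. E(spl)mbeta-HLH is also in the Notch target list, and mira, which fell, is not among these markers. Over 5 of 7 enteroendocrine markers the arrays ran from 6.38 to 7.14 in RafGOF NotchIC and from 7.56 to 7.66 in wild type, with 2 called lower (AstC and pros) and 0 higher. The group ranges of the mean signal did not overlap for any of these cell types. The median enterocyte marker stood at the percentile 98.6 of all signals. The part of cell makeup in the changes of other lists was not tested.

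The direct contrast asked what active Notch added to RafGOF. In RafGOF NotchIC minus RafGOF, 168 genes were higher (1.4%) and 193 were lower (1.61%). Deviations of same-numbered arrays of these groups correlated at 0.355, 0.528, 0.104 and 0.127. Array 3 of RafGOF NotchIC correlated more with RafGOF array 4 (0.441), so the number pairs the arrays only in part. With the number as a block over all 16 arrays 493 were higher and 545 were lower. With the block over only these 8 arrays the counts were 152 and 160. Without the 4 arrays numbered 2 the counts were 41 and 44. Leaving out 1 array gave 81 to 211 higher and 78 to 195 lower genes. The higher count was 81 without RafGOF array 2, 82 without RafGOF array 3, and 94, 88 and 90 without RafGOF NotchIC array 1, 2 and 3. The lower count was 82 and 78 without RafGOF array 2 and 3, and 79 and 101 without RafGOF NotchIC array 2 and 3. Dh31 was called lower than in RafGOF only with the block (difference −1.28, adjusted p = 0.0127 over 8 arrays and 0.000432 over 16). AstC, called lower without a block, was not called with the block over 8 arrays (adjusted p = 0.0701).

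Some genes stood above both RafGOF and wild type. CG14565 had 6.14, 6.36, 6.77 and 7.44 in RafGOF NotchIC and averaged 4.14 in RafGOF and 4.2 in wild type (difference from RafGOF 2.54 ± 0.21, adjusted p = 7.28e-06). CG15629 averaged 8.68 in RafGOF NotchIC, 6.62 in RafGOF and 6.91 in wild type (difference from RafGOF 2.06, adjusted p = 6.57e-06). CG11068 was higher than in RafGOF by 1.95 (adjusted p = 6.47e-05). Irc was higher by 1.57 (adjusted p = 0.00821; 0.0568 with a block over the 8 arrays), and Drsl2 by 4.27 (adjusted p = 0.0007).

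CG31810 averaged 9.82 in RafGOF NotchIC, 6.34 in RafGOF and 7.93 in wild type, with a difference from RafGOF of 3.49 (adjusted p = 5.4e-08). CG32302 exceeded RafGOF by 2.86 (adjusted p = 0.0051; 0.0807 without the arrays numbered 2). The P450 gene Cyp6a9 was above RafGOF by 2.13 (adjusted p = 7.81e-05) and below wild type by 1.93-fold (adjusted p = 0.00943).

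Among genes below RafGOF, Cyp4p1 averaged 8.77 in RafGOF NotchIC, 10.57 in RafGOF and 7.81 in wild type (difference from RafGOF −1.8, adjusted p = 2.79e-05). The enzyme dUTPase, which keeps uracil out of DNA, averaged 9.33 in RafGOF NotchIC, 10.63 in RafGOF and 7.64 in wild type (difference from RafGOF −1.3, adjusted p = 0.00611). CG3635 had 5.08, 5.03, 4.76 and 5.1 in RafGOF NotchIC and averaged 6.76 in RafGOF and 6.83 in wild type (difference from RafGOF −1.77, adjusted p = 0.0051; 0.06 without the arrays numbered 2). Of the 34 named genes called in this contrast, 21 were called under every left-out array, and 19 lost their call without the arrays numbered 2.

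**Figure D5:**
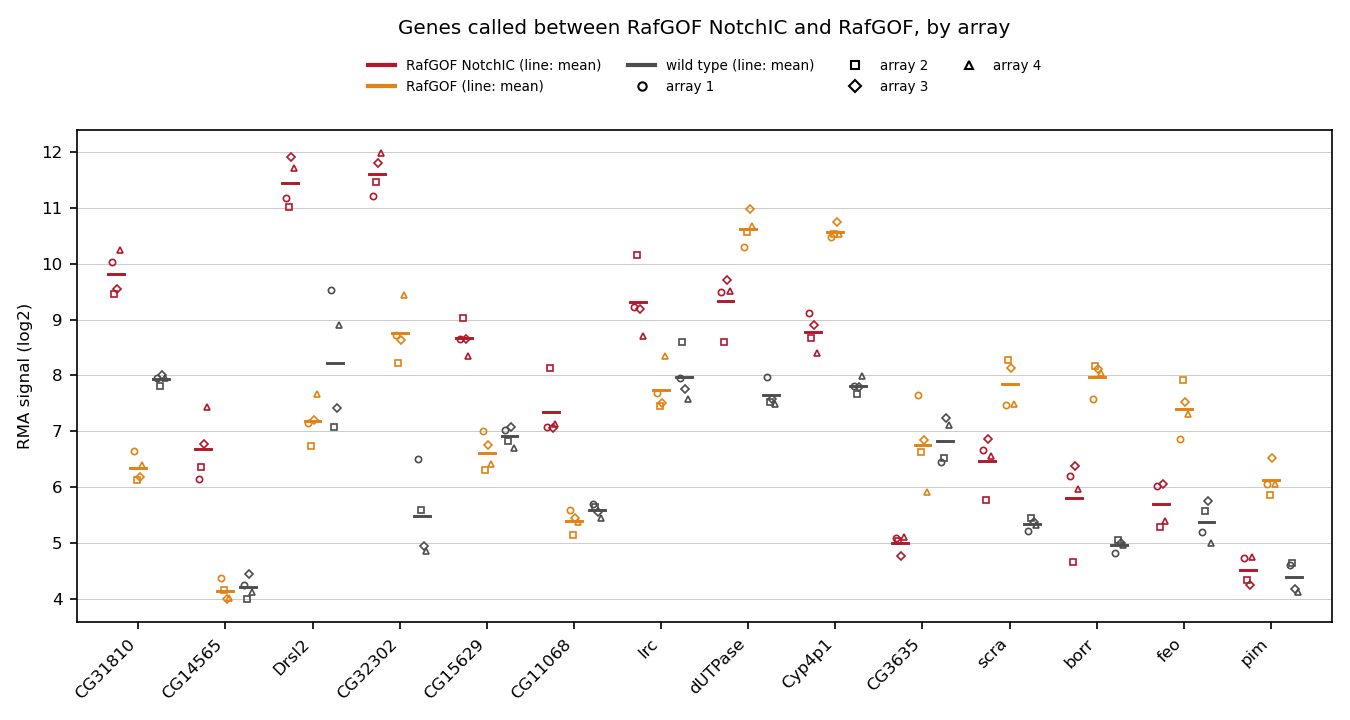
RMA signal (log2, vertical axis) of 14 genes called between RafGOF NotchIC and RafGOF, with wild type on the right of each gene, a marker for each array and a line for each mean. CG14565, CG15629 and CG11068 are above both other groups in every RafGOF NotchIC array, and borr, feo and pim average 5.8, 5.69 and 4.51 in RafGOF NotchIC, below RafGOF.

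Between the Notch constructs, RafGOF NotchIC minus RafGOF NotchDN, 656 genes were higher (5.47%) and 730 were lower (6.09%). Deviations of same-numbered arrays correlated at 0.277, 0.529, 0.221 and 0.157 here, and RafGOF NotchIC array 3 at 0.445 with RafGOF NotchDN array 4. The block gave 1651 higher and 1271 lower genes over 16 arrays, and 1299 and 950 over 8 arrays. The higher count was 335 without RafGOF NotchDN array 3, 433 without RafGOF NotchIC array 1 and 373 without RafGOF NotchIC array 3. In the progenitor list 6 of 9 genes were lower in RafGOF NotchIC and 1 was higher, and in the Notch target list 3 of 14 were higher and 0 lower. AstC was lower than in RafGOF NotchDN by a difference of −1.2 (adjusted p = 0.00409), spdo by −1.51 (adjusted p = 1.45e-05) and zfh2 by −1.76 (adjusted p = 5.87e-05). Dh31 (difference −0.92), Sox100B (−1.09), pros (−0.53), 7B2 (−0.55) and CCHa2 (−0.6) were called lower only with the block. Their adjusted p was 0.00895, 0.01, 0.01, 0.046 and 0.0493 over 8 arrays, and 0.000809, 0.00132, 0.0189, 0.00864 and 0.0182 over 16. E(spl)m3-HLH and E(spl)malpha-BFM were called higher with the block over 8 arrays only (adjusted p = 0.0204 and 0.0495).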

How the data were processed

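Per the labels, the samples were total RNA of female midguts, amplified with a 3′ IVT Express kit, on 16 Affymetrix arrays. The authors deposited log2 signals made with RMA, per the submitters' processing notes, of unstated version. RMA gives no detection calls, and the number of arrays limits the precision. No further normalization was applied.

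Of 18769 probe sets, 13647 carried 1 symbol, 402 several and 4720 none in the platform annotation, and 13544 were matched to RefSeq by gene ID. Where a gene had several, its brightest probe set by mean signal was used. The model (limma 3.58.1, R 4.3.3) held a mean for each of the 4 groups, with 12 residual degrees of freedom, empirical Bayes moderation and Benjamini-Hochberg adjustment over all probe sets. A call was a two-sided adjusted p below 0.05. SE is that of the fit. The fit was tested on simulated data with independent noise on every array. That test cannot speak to deviations shared by same-numbered arrays.

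The members and lists were chosen with earlier results of these data known. The rule named the 15 largest rises and falls without overlap of groups, the 5 largest of genes with CG numbers, up to 5 called members per list, all measured progenitor, Notch target, enteroendocrine specification and EGFR genes, and the 8 largest rises and falls against RafGOF among genes also called against wild type; 4 further genes were added after their values were seen. That made 183 genes, of which 143 were called against wild type. All 183 entered the checks of stability, while the text describes those it needs, a choice made with the values known.

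Deviations of same-numbered arrays correlated at 0.342, 0.574, 0.0489 and 0.174 between RafGOF NotchIC and wild type, so the numbers were not taken to pair them (minimum 0.1). They were taken to pair RafGOF NotchIC with RafGOF (0.104 to 0.528) and with RafGOF NotchDN (0.157 to 0.529). Only array 3 fell under the minimum against wild type, and it passed narrowly against RafGOF. Some arrays of unlike number correlated more, as RafGOF NotchIC array 3 with array 4 of RafGOF (0.441) and of RafGOF NotchDN (0.445). Calls and p-values of those contrasts are nevertheless from the fit without a block, which leaves that pairing out, except where a block is named. The counts of genes changed with this choice and are given both ways. Alternatives were fewer arrays, a replicate block, other scalings, filters on dim probe sets, another variance model, array weights, other probe sets per gene and each array left out.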

Additional observations from a re-analysis of the deposited data

Results flagged for a closer look

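In the 183 named genes, 366 groups of 4 arrays were checked by Dixon's test for 1 array far from the other 3, and 24 were found; chance flags about 1 group in 20. No explanation was tested.

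In RafGOF NotchIC, array 2 was the highest for CG11068 at 8.13, Egfr at 7.3, ClC-a at 8.67, LManII at 11.53, Oatp58Db at 9.17 and Vha100-5 at 11.83, and the lowest for Cdk4 at 5.76 and jumu at 4.17. Array 1 was the highest for CG9360 at 6.06 and Lip4 at 8.12 and the lowest for betaTub60D at 11.73. Array 3 was the lowest for Cyp6a21 at 6.48, VhaM9.7-a at 3.74 and tap at 3.3.

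In wild type, array 2 was the lowest for 7B2 at 8.05 and Ipk2 at 9.01 and the highest for bgm at 11.05. Array 1 was the lowest for Cyp6g1 at 11.04 and sc at 5.14 and the highest for E(spl)m5-HLH at 5.6, dUTPase at 7.98 and tum at 5.8. Array 4 was the highest for Krn at 8.0 and VhaSFD at 12.45.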

How the results depend on the processing

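Of the 143 named genes called against wild type, 100 were called whichever single array was left out, 43 lost the call for at least 1 array, and 11 lost it without the arrays numbered 2. Over all alternatives to that contrast, 2613 of their values kept direction and call, 235 kept direction only and 1 turned: with all probe sets of CG42335 averaged, it differed by 0.4901 (adjusted p = 0.461), since its probe sets go opposite ways. For RafGOF NotchIC minus RafGOF 13 of 34 calls and for RafGOF NotchIC minus RafGOF NotchDN 3 of 12 calls were lost for at least 1 array.

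Leaving out 1 array gave 904 to 1601 higher and 600 to 997 lower probe sets against wild type, 764 to 1360 and 503 to 817 genes, and 51 to 71 and 50 to 87 list genes. It gave 81 to 211 and 78 to 195 genes against RafGOF, and 335 to 662 and 488 to 840 against RafGOF NotchDN. The replicate number shared by the groups was also fitted as a block. The block over 16 arrays gave 2512 higher and 1835 lower probe sets, 2107 and 1397 genes and 119 lower list genes against wild type, 493 and 545 genes against RafGOF, and 1651 and 1271 against RafGOF NotchDN. Over the 8 arrays of 2 groups the block gave 2284 higher probe sets and 1909 higher genes against wild type, and 1299 higher genes against RafGOF NotchDN. Array weights gave 2165 higher and 1499 lower probe sets and 1840 higher genes against wild type, 536 and 577 genes against RafGOF, and 1463 and 1246 against RafGOF NotchDN. Against RafGOF, the 8 arrays alone gave 72 and 95, arrays centred on their median 111 lower, and the fit without arrays numbered 2 gave 41 and 44. Against wild type, where the numbers were not taken to pair the arrays, the block also called genes that the main fit did not. Over 16 arrays it called sty (adjusted p = 0.00182), S (adjusted p = 0.00699), E(spl)m7-HLH (adjusted p = 0.00367) and borr (adjusted p = 0.0348). Over 8 arrays it called sty (adjusted p = 0.00393), S (adjusted p = 0.0276), E(spl)m7-HLH (adjusted p = 0.0139) and Sox21a (adjusted p = 0.0212). The cause of these shifts was not tested. Scaling moved the median difference of all probe sets only between −0.025 and 0.025. Signals near the array medians limit what can be detected.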
